A study of Saccharomyces cerevisiae with 6 samples.

Results

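Yeast makes glycerol from the glycolytic intermediate dihydroxyacetone phosphate, in a reduction that consumes NADH followed by the removal of a phosphate. During alcoholic fermentation without oxygen this route disposes of the NADH left over from biosynthesis, and glycerol is also the compatible solute that the cell retains against high sugar. Glycerol leaves the cell through a channel, re-enters by active transport, and is burned through a kinase and a mitochondrial dehydrogenase once fermentable sugar is gone. The 8 genes described here cover this cycle: GPD1 and GPD2 (synthesis), FPS1, STL1 and GUP1 (transport), GUT1 and GUT2 (use), and HOG1, the kinase of the osmotic stress pathway that drives GPD1. They were chosen by gene symbol in the platform annotation, each is read by 1 probe, and they are 8 of 6248 genes and unnamed probes measured.

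RNA was measured on 6 one-color arrays in 2 strains, both in the haploid wine yeast background 59A, a MATa spore derivative of EC1118. The 3 cultures of wild type 59A carry the PDR8 allele of the wine yeast. The 3 cultures of 59A PDR8-S288c carry the allele of the laboratory strain S288c, introduced by way of a PDR8 deletion and selected through a kanMX cassette that the methods place in the terminator of PDR8. PDR8 encodes a zinc-finger transcription factor of pleiotropic drug resistance, and effects of the exchanged allele cannot here be told apart from those of the cassette. All cultures grew without oxygen and were sampled in stationary phase at 66 g/l CO2 released (70% of fermentation progress) in a synthetic grape must with p-aminobenzoic acid and iron(III) chloride. The deposited values are normalized log2 spot intensities, on which 5.3 is the background level and 16 is saturation. Differences are given as 59A PDR8-S288c minus 59A and were tested with limma, with p-values adjusted over all 6248 features. The labels call the samples of a strain biological replicates.

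As a check of the labels, QDR2, a drug transporter gene, stood 2.22 log2 units higher with the S288c allele (limma SE 0.07, adjusted p = 1.41e-05), and PDR8 itself, with 2 wild type values, stood at -0.49 (limma SE 0.05, adjusted p = 0.026). PDR8 passed an adjusted p under 0.05 in 9 of 16 alternative settings (adjusted p = 0.0148 to 0.202 from limma, log2 fold change -0.52 to -0.47), and QDR2 in 17 of 17. How well the PDR8 probe matches each allele was not examined. The a-specific mating genes lay between 6.70 and 11.5 log2 units, while the 3 alpha-specific genes did not exceed 6.00 and the 4 ASP3 copies of S288c did not exceed 5.94. On the array of wild type replicate 3, values are missing for 2066 of 6271 probes, among them GUP1 and GUT2, which therefore have 2 wild type values. On slide 1, wild type replicates 1, 2 and 3 occupied subarrays 8, 1 and 2, and the same replicates of 59A PDR8-S288c occupied 6, 7 and 5.

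None of the 8 glycerol genes differed between the strains at an adjusted p under 0.05 from limma, where 1.54% of all features did (0.512% higher and 1.02% lower in 59A PDR8-S288c), or at the stricter 0.01, where 0.048% did. At an unadjusted p under 0.05 the count was also 0 of 8, against 18.1% of all features. The log2 fold changes ran from -0.06 (GPD1) to 0.26 (GPD2), with a median of 0.03 beside 0.01 over all features. For 7 of the 8 genes the 95% confidence interval of the difference lay within 0.25 log2 units on either side of 0, which held for 64.2% of all features. The exception was GPD2, and the interval of STL1, whose signal was at background, bears on no strain difference. Of the 6 glycerol genes measured on all arrays 0 were without overlap between the strains, beside 24.6% of the features so measured (13.5% higher and 11.1% lower with the S288c allele). Among the 2 with 2 wild type values, GUP1 was without overlap, beside 35% of such features. The exact permutation test of single genes gave two-sided p = 0.2 to 0.9, where 0.1 is the smallest p that 3 cultures against 3, or 3 against 2, allow.

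**Figure D1:**
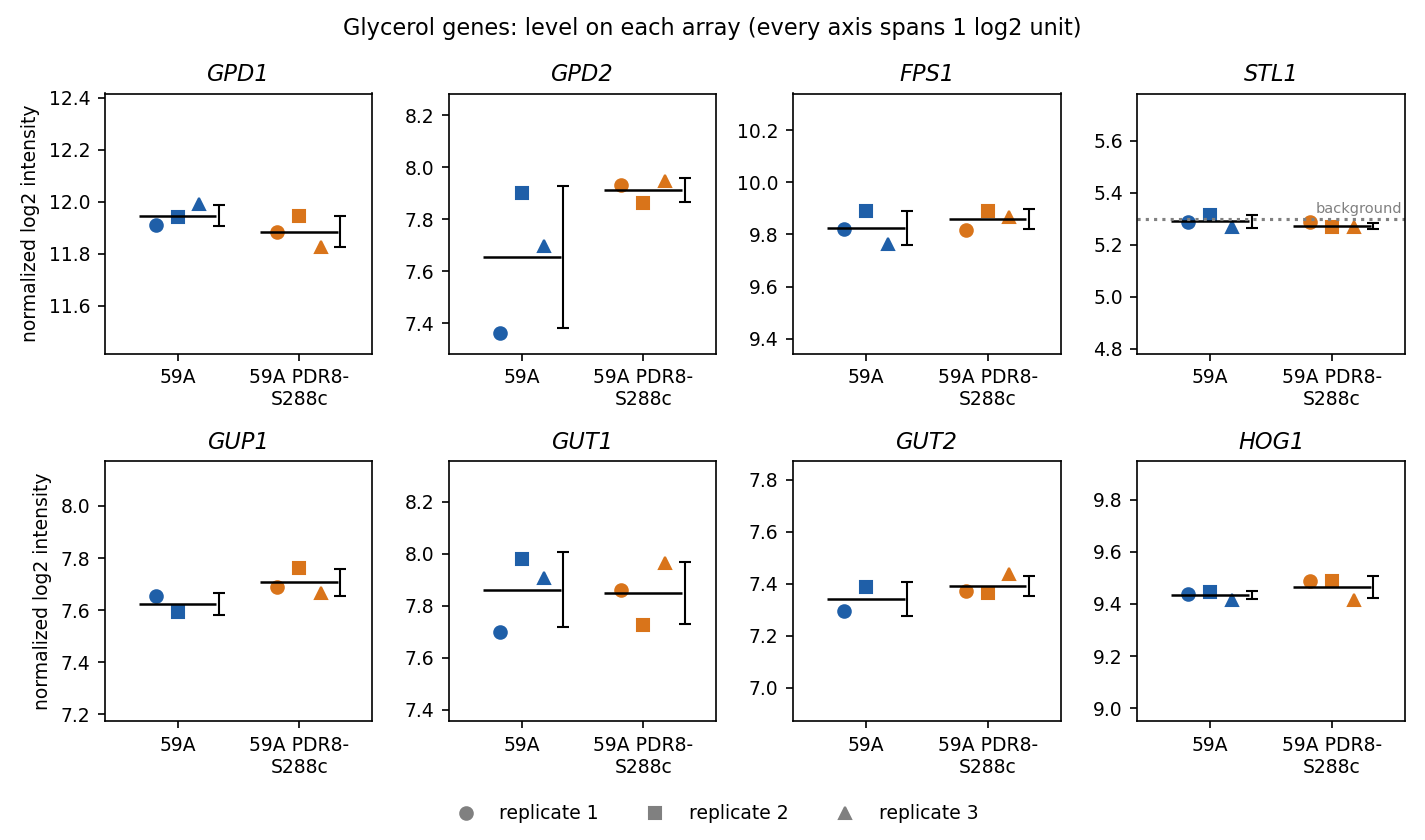
Normalized log2 intensity of the 8 glycerol genes on each array, with a symbol for each replicate, a line at the mean of each strain and a bar for the SD (n = 3, and n = 2 for GUP1 and GUT2 in 59A). GPD2 and GUT1 show the widest scatter within strains, and STL1 lies at the background level of 5.3 in both strains.

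GPD1 (YDL022W) encodes the glycerol 3-phosphate dehydrogenase that is induced by osmotic stress. Its level was 11.91, 11.94 and 11.99 log2 units in replicates 1, 2 and 3 of 59A, against 11.88, 11.94 and 11.83 in those of 59A PDR8-S288c. The strains overlapped, and no culture stood apart. The difference between strains was -0.06 log2 units (limma SE 0.05, adjusted p = 0.545), with a 95% confidence interval from -0.18 to 0.05. As a ratio to the wild type signal, the limits of this interval are 0.886 and 1.04.

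GPD2 (YOL059W) encodes the isoenzyme that serves redox balance in anaerobic cells. Its level was 7.36, 7.90 and 7.70 log2 units in replicates 1, 2 and 3 of 59A, against 7.93, 7.86 and 7.95 in those of 59A PDR8-S288c. Wild type replicate 1 was the lowest culture, replicate 2 lay among the cultures with the S288c allele, and the 3 cultures with that allele were close together. The wild type averaged 7.65 ± 0.27 (SD, n = 3), a wider spread than the 7.91 ± 0.05 (SD, n = 3) found with the S288c allele. The SD pooled over both strains was higher than that of 95.6% of all features. On the log2 scale the strains differed by 0.26 (limma SE 0.12, adjusted p = 0.316), the farthest from 0 of the 8 genes, with a 95% confidence interval from -0.03 to 0.54. It was 0.11 without wild type replicate 1 and 0.38 without wild type replicate 2, so this value rests on the wild type cultures that are included. With a term for the part of the slide (subarrays 1 to 4 or 5 to 8) it was 0.55 (adjusted p = 0.202 from limma), in a fit where wild type replicate 1 is the only wild type array among subarrays 5 to 8. Within the 3 arrays on even subarrays it was 0.40, and within the 3 on odd subarrays it was 0.0014.

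FPS1 (YLL043W) encodes the aquaglyceroporin of the plasma membrane, the channel through which glycerol leaves the cell and which closes under osmotic stress. Its level was 9.82, 9.89 and 9.76 log2 units in replicates 1, 2 and 3 of 59A, against 9.82, 9.89 and 9.87 in those of 59A PDR8-S288c. The strains overlapped, and wild type replicate 3 was the lowest culture. The strains differed by a log2 fold change of 0.04 (limma SE 0.05, adjusted p = 0.753), with a 95% confidence interval from -0.08 to 0.15.

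STL1 (YDR536W) encodes the glycerol/proton symporter, an uptake system that is repressed by glucose. Its signal was 5.29, 5.32 and 5.27 log2 units in replicates 1, 2 and 3 of 59A, against 5.29, 5.27 and 5.27 in those of 59A PDR8-S288c, at the background level of 5.3 on all 6 arrays. A difference in STL1 was therefore not detectable at this signal.

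GUP1 (YGL084C) encodes a membrane-bound O-acyltransferase that was first described as a gene of glycerol uptake and acts in the remodelling of GPI anchors. Its level was 7.65 and 7.59 log2 units in wild type replicates 1 and 2, against 7.69, 7.76 and 7.67 in replicates 1 to 3 of 59A PDR8-S288c. The 3 cultures with the S288c allele were above both wild type cultures, by a gap of 0.013 log2 units. The difference between strains was 0.08 log2 units (limma SE 0.05, adjusted p = 0.48), with a 95% confidence interval from -0.05 to 0.21.

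GUT1 (YHL032C) encodes glycerol kinase, the first step of glycerol use. Its level was 7.70, 7.98 and 7.91 log2 units in replicates 1, 2 and 3 of 59A, against 7.86, 7.73 and 7.97 in those of 59A PDR8-S288c. Each strain had a low culture (wild type replicate 1 and 59A PDR8-S288c replicate 2), and the strains overlapped over most of their ranges. The pooled SD of 0.13 was higher than that of 88.5% of all features. On the log2 scale the strains differed by -0.01 (limma SE 0.09, adjusted p = 0.96), with a 95% confidence interval from -0.22 to 0.19.

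GUT2 (YIL155C) encodes the mitochondrial glycerol 3-phosphate dehydrogenase, which passes the electrons of glycerol 3-phosphate to the respiratory chain. Its level was 7.30 and 7.39 log2 units in wild type replicates 1 and 2, against 7.37, 7.36 and 7.44 in replicates 1 to 3 of 59A PDR8-S288c. The strains overlapped. The strains differed by a log2 fold change of 0.05 (limma SE 0.06, adjusted p = 0.692), with a 95% confidence interval from -0.08 to 0.18. As seen from their values, with no test, GPD2 and GUT1 shared the order of their cultures within strains. They were lowest in replicate 1 and highest in replicate 2 of the wild type, and lowest in replicate 2 and highest in replicate 3 of 59A PDR8-S288c. This order, picked after seeing the data, held for 2.6% of the features measured on all arrays. GUT2, with no value in wild type replicate 3, had the same order on its other arrays.

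HOG1 (YLR113W) encodes the mitogen-activated protein kinase that is activated by hyperosmotic stress and induces GPD1. Its level was 9.44, 9.45 and 9.42 log2 units in replicates 1, 2 and 3 of 59A, against 9.49, 9.49 and 9.42 in those of 59A PDR8-S288c. The lowest culture of 59A PDR8-S288c lay within the wild type range. The pooled SD of 0.03 was higher than that of only 9.73% of all features, and the log2 fold change was 0.03 (limma SE 0.04, adjusted p = 0.739), with a 95% confidence interval from -0.07 to 0.13. The arrays measure RNA, and the activity of the kinase was not measured.

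**Figure D2:**
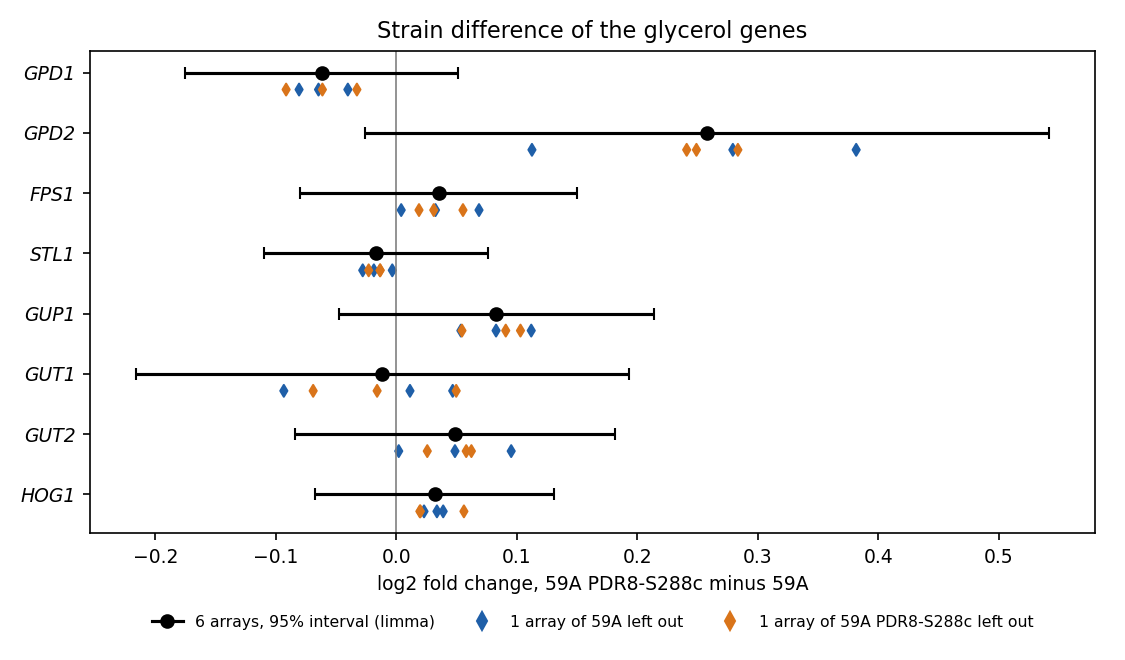
Log2 fold change (59A PDR8-S288c minus 59A) of the 8 glycerol genes over 6 arrays with its 95% confidence interval (black), and the values with 1 array left out (diamonds). All intervals include 0, and leaving out wild type replicate 1 or 2 moved GPD2 to 0.11 or 0.38.

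The second step of glycerol synthesis is carried out by the glycerol 3-phosphate phosphatases of GPP1 and GPP2, the latter induced by osmotic stress. GPP2 had a level of 10.55, 9.85 and 10.56 log2 units in replicates 1, 2 and 3 of 59A, against 10.50, 9.71 and 9.64 in those of 59A PDR8-S288c. GPP1 had a level of 12.34, 12.19 and 12.63 in replicates 1, 2 and 3 of 59A, against 12.45, 12.07 and 11.98 in those of 59A PDR8-S288c. Both genes were high in the same 3 cultures, wild type replicates 1 and 3 and 59A PDR8-S288c replicate 1, and these are the 3 arrays on even-numbered subarrays (8, 2 and 6). For GPP2 the lowest even subarray was 0.65 log2 units above the highest odd one, a gap that 15 of the 4190 features measured on all arrays reached, GPP2 among them. For GPP1 the gap was 0.14. Even and odd subarrays separated without overlap in 18.4% of those features. GPD1 and GPD2, the preceding step, overlapped between even and odd subarrays.

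**Figure D3:**
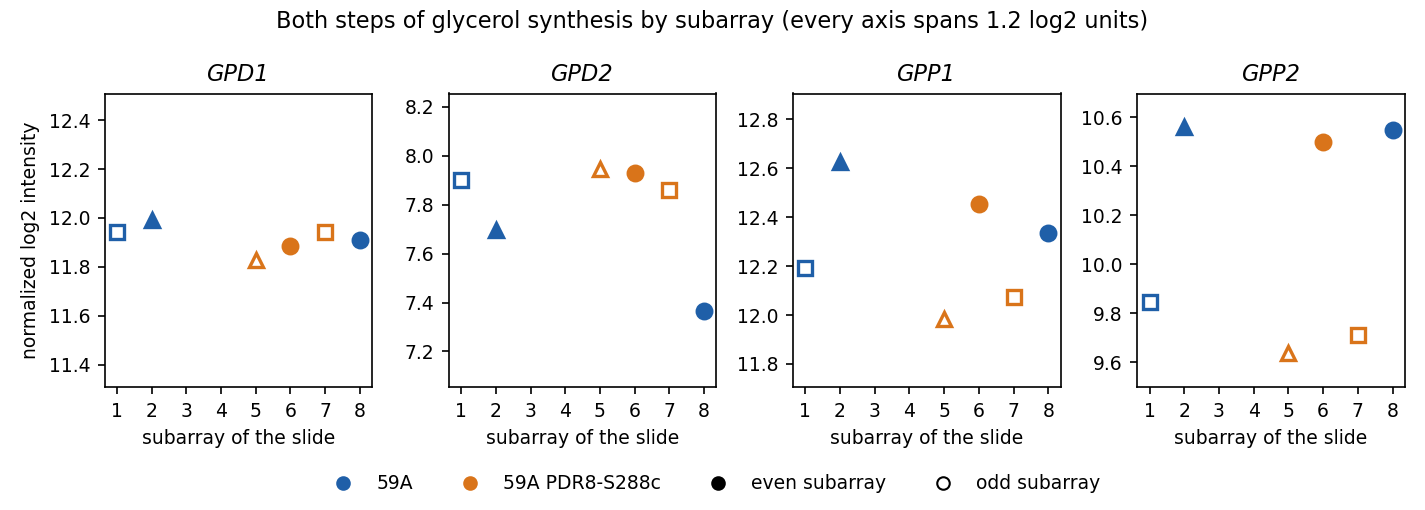
Normalized log2 intensity of GPD1, GPD2, GPP1 and GPP2 against the subarray number, in blue for 59A and in orange for 59A PDR8-S288c, with filled symbols for even subarrays and a circle, square or triangle for replicates 1, 2 and 3. GPP1 and GPP2 were higher on subarrays 2, 6 and 8 than on 1, 5 and 7, by a gap of 0.14 and 0.65 log2 units, while GPD1 and GPD2 overlapped.

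The strain difference of GPP2 was -0.37 (limma SE 0.27, adjusted p = 0.511) and that of GPP1 -0.22 (limma SE 0.15, adjusted p = 0.484). Of the even subarrays 2 held the wild type, and of the odd ones 1 did. Within even subarrays the difference in GPP2 was -0.05 and within odd ones -0.17, both smaller in size than the pooled value. For GPP1 these values were -0.03 and -0.16, beside -0.22 pooled. Each such value rests on 1 culture of 1 of the strains. With even or odd number as a covariate, an alternative chosen after seeing the data, the difference was -0.11 (limma SE 0.05, adjusted p = 0.263) for GPP2 and -0.10 (limma SE 0.08, adjusted p = 0.582) for GPP1. Whether the subarray or the cultures set the levels of GPP1 and GPP2 was not tested.

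The list of other genes of the glycerol route held 12 genes, and none of them passed an adjusted p under 0.05 from limma (0 also at an unadjusted p under 0.05), with a median log2 fold change of 0.04. DAK1, a dihydroxyacetone kinase gene of the alternative route of glycerol use, had a level of 10.92 and 10.75 in wild type replicates 1 and 2 and of 11.08, 10.94 and 10.99 in the cultures with the S288c allele, without overlap. Of features with 2 wild type values, 35% were without overlap in either direction. For DAK1 the difference was 0.17 (limma SE 0.07, adjusted p = 0.284). Its paralog DAK2 was at background on all arrays, with means of 5.22 and 5.24 log2 units. The genes of the external NADH dehydrogenases of mitochondria, NDE1 and NDE2, differed between the strains by 0.01 (SE 0.06) and 0.07 (SE 0.07) log2 units, neither past the test.

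Of 28 genes of the HOG pathway other than HOG1 (osmosensors, phosphorelay, kinases, transcription factors and phosphatases), 1 rose in 59A PDR8-S288c (MSN4), 0 fell and 27 did not pass an adjusted p under 0.05 from limma. The median log2 fold change was 0.04. From limma, 8 of the 28 passed an unadjusted p under 0.05, beside 18.1% of all features (1.54% passed an adjusted p under 0.05). MSN4 encodes a zinc-finger activator of the general stress response. Its level was 9.87, 9.74 and 9.79 log2 units in replicates 1, 2 and 3 of 59A, against 10.19, 10.08 and 10.16 in those of 59A PDR8-S288c. No wild type culture reached any of the 3 cultures of 59A PDR8-S288c, as in 13.5% of the features measured on all arrays. The difference between strains was 0.34 log2 units (limma SE 0.05, adjusted p = 0.0347), with a 95% confidence interval from 0.22 to 0.47. The call of MSN4 was lost without any 1 of the 6 arrays (adjusted p = 0.0506 to 0.169 from limma). The log2 fold change was then 0.32 to 0.38. The call was also lost with the replicate number of the titles or descriptions as a block (adjusted p = 0.0515 and 0.157 from limma). A separate fit with a term for the part of the slide also lost the call, at 0.28. In that fit wild type replicate 1 is the only wild type array beside the 3 with the S288c allele. The value of 0.28 is therefore the difference from that 1 culture, and the fit cannot show whether slide position matters. MSN2, the paralog of MSN4, with 2 wild type values, was at a difference of 0.10 (limma SE 0.06, adjusted p = 0.441). YPD1, the phosphorelay protein between the sensor Sln1p and the response regulator Ssk1p, was at -0.24 (limma SE 0.06, adjusted p = 0.084). YPD1 passed in 1 of 17 alternative settings, as did PTC3, a phosphatase gene.

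Of 14 genes known to respond to osmotic stress, none passed an adjusted p under 0.05 from limma, and 4 passed an unadjusted p under 0.05, beside 18.1% of all features. Their median log2 fold change was -0.12, with 10 of the 14 below 0, beside 2937 of all 6248 features. In alternative settings HSP12 passed in 3 of 16, with an adjusted p of 0.0298 to 0.401 from limma over all 16, and ALD3, SIP18 and RTC3 passed in 1 of 17 each. HSP12, which encodes a membrane-protecting small heat shock protein, had a level of 8.60 and 8.58 log2 units in wild type replicates 1 and 2 and of 7.82, 8.16 and 8.16 in the cultures with the S288c allele, without overlap. A lack of overlap, in either direction, was found in 35% of features with 2 wild type values. ALD3 (-0.27) and RTC3 (-0.34), measured on all arrays, were also lower without overlap, as were 11.1% of the features so measured. For HSP12 the difference was -0.54 (limma SE 0.11, adjusted p = 0.0699). SIP18, a gene of desiccation tolerance, was at -0.35 (limma SE 0.13, adjusted p = 0.224) with strains that overlapped. GPD1, which is induced by the same stress, stood at -0.06.

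**Figure D4:**
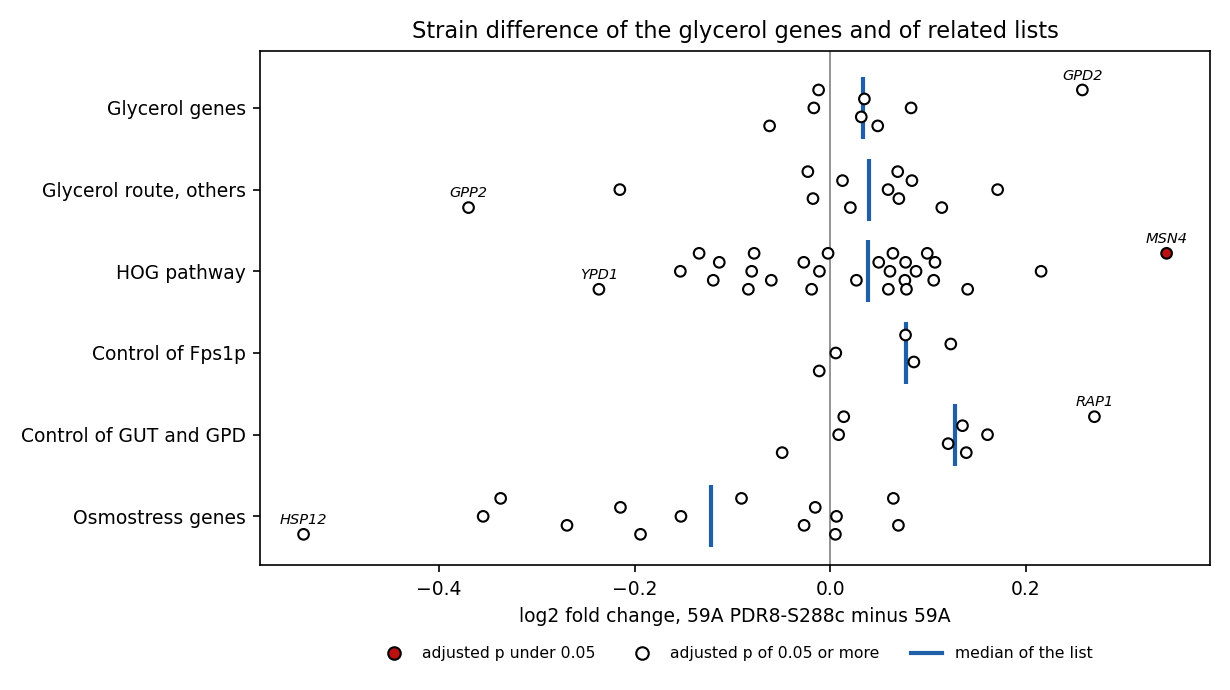
Log2 fold change (59A PDR8-S288c minus 59A) of each gene in the glycerol genes and in 5 related lists, with a blue line at the median of each list (vertical positions are spread for legibility). MSN4 is in red as the 1 gene past an adjusted p under 0.05, and the median of the osmostress genes was -0.12.

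Among genes that control the channel Fps1p or its regulators, 5 of 6 were measured and named and none passed an adjusted p under 0.05 or an unadjusted p under 0.05 from limma. YPK2, a protein kinase gene, was at a log2 fold change of 0.12 (SE 0.09) and SLM2, a gene of a TORC2 pathway protein, at 0.09 (SE 0.05). Of 8 regulator genes of the GUT and GPD genes none passed an adjusted p under 0.05, 3 passed an unadjusted p under 0.05 (18.1% of all features did) and 7 were above 0 (3311 of all 6248 features were), with a median of 0.13. RAP1, which encodes a DNA-binding regulator of GPD1 and of many ribosomal protein genes, was at 0.27 (limma SE 0.08, adjusted p = 0.145). INO4, which encodes an activator of phospholipid genes, was at 0.16 (limma SE 0.05, adjusted p = 0.19).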

How the data were processed

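Cy3-labeled cRNA of 6 samples was hybridized to Agilent one-color arrays. The deposited log2 values are median spot intensities that the authors had quantile-normalized with limma (R 2.13.1). Whether these 6 arrays entered the joint normalization of the data set is not stated. No scaling was added. The table holds 6271 probes: 5220 carry 1 gene symbol, 1051 carry none here, and 5218 were matched to a locus of RefSeq (assembly R64), used for names only. The 8 genes have 1 probe each. Where a gene had several probes (22 genes), only its brightest probe was kept. Strain differences came from limma 3.58.1 under R 4.3.3 (functions lmFit and eBayes, without a block) and Benjamini-Hochberg adjustment over 6248 features. The fit was tested on simulated data. The number of arrays limits the precision. The samples of 59A PDR8-S288c titled replicates 1 and 2 carry each other's number in their descriptions, and the titles were used.

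The members and lists were chosen with earlier results of these data known. Named were the 8 genes, every listed gene whose adjusted p was under 0.05, per list the 2 genes farthest from 0, GPP1 and GPP2, and the paralog pairs of DAK1, NDE1 and MSN2. Probe sequences were not examined, so signal shared between paralogs was not tested. RGC1 was not analysed here. GPP1 and GPP2 are RHR2 and HOR2 in the annotation. The alternatives changed the scaling, the filters, the variance model, array weights, the probe of a gene, a replicate or slide term, and the arrays included.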

Additional observations from a re-analysis of the deposited data

How the results depend on the processing

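None of the 8 glycerol genes passed an adjusted p under 0.05 from limma in any of the 133 values computed over 17 alternatives. The 7 genes other than GUT1 kept their sign in all of them. The filters, the variance model and the mean of probes leave the estimate of a kept gene unchanged, so no sign could change there. Without single arrays GPD1 ran from -0.0915 to -0.0328, GPD2 from 0.11 to 0.38, FPS1 from 0.0040 to 0.0686, STL1 from -0.0279 to -0.0034, GUP1 from 0.0535 to 0.11, GUT2 from 0.0020 to 0.0953 and HOG1 from 0.0195 to 0.0561. GUT1 (-0.01 as reported) changed sign in 5. It was 0.0229 with array weights and 0.15 with slide position (subarrays 1 to 4 against 5 to 8). Without single arrays GUT1 was -0.0934 to 0.0497 (0.0467 without wild type replicate 2, 0.0113 without its replicate 3, 0.0497 without 59A PDR8-S288c replicate 2). The median of the genes was between 0.01 and 0.05. Over all features, the 96 calls became 152 under eBayes with trend and robust, 208 under array weights, 6 with slide position, 219 with even or odd subarray (chosen after seeing the data), and 3 to 90 without single arrays. With the replicate number of the titles as a block there were 19 and with that of the descriptions 3, and the block changed no call of the 8 genes. Across features, the deviations of same-numbered samples correlated at 0.17, 0.34 and -0.43 by title, and at -0.05, -0.69 and -0.43 by description. Deviations from means of so few arrays cannot show whether the numbers pair the cultures. In the fit with slide position, wild type replicate 1 is the only wild type array in the part of the slide that holds 59A PDR8-S288c. The strain difference there rests on that 1 wild type culture. Neither the 0.15 of GUT1 nor the number of calls in that fit can therefore show an effect of position. The cause of the other changes in the number of calls was not tested. STL1 lay at background, was left out with dim probes, and is not measured at this signal.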

Other observations

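For the 6 glycerol genes measured on all arrays (GUP1 and GUT2 were not), the genes most alike were looked for among 3490 other named genes so measured, by Pearson's r over the 6 arrays, as a description. The closest to GPD2 was RPT3, a proteasome ATPase gene (r = 0.98), to GUT1 it was DLS1, a gene of a chromatin remodelling complex (r = 0.99), and to GPD1 it was GND1, the 6-phosphogluconate dehydrogenase gene (r = 0.96). For FPS1 the closest was YGR127W (r = 0.99) and for HOG1 it was YMR317W (r = 0.94). None of these 6 glycerol genes was among the 3 closest genes of another of them. The arrays share the slide and the normalization, and the highest of so many values over 6 arrays is large by choice.

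Within arrays, the log2 signal of GPD2 minus that of GPD1 was -4.55, -4.04 and -4.29 in replicates 1, 2 and 3 of 59A, against -3.95, -4.08 and -3.88 in those of 59A PDR8-S288c. The strains overlapped in this difference through wild type replicate 2. The 2 signals come from different probes, so only the change of this difference between arrays can be read.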
